A study of Saccharomyces cerevisiae with 10 samples.

Results

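The genes described here are the 5 that encode the central enzymes of ammonium assimilation and glutamate turnover in budding yeast: GDH1, GDH3, GLT1, GLN1 and GDH2. They were found by gene symbol in the probe annotation, 1 probe row for each gene, among 5711 genes that the annotation names and 5415 that had enough values to be tested. All 5 had a value on each of the 10 arrays. Their messenger RNA was compared among 5 Saccharomyces cerevisiae lines of a mutation-accumulation experiment (MA), in which cells pass through very small populations again and again and selection acts on few of the new mutations. The labels call the lines MA-A8, MA-A4, MA-A3, MA-A1 and MA-A0. The labels give no strain background, ancestor, mutation or growth medium, and they name no line as a control.

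On every array the total RNA of one line carried Cy5 and that of another carried Cy3, and the 10 arrays hold each possible pair of lines once. Each line was thus measured 4 times, with Cy5 on 2 arrays and with Cy3 on 2. Values are log ratios, Cy5 over Cy3, centred on the median of each array, and they show differences between lines but not the level of a gene. The deposited table does not state its logarithm's base or its direction. Base 2 was assumed, and the direction was taken as likely from the array titles, read as the Cy5 line over the Cy3 line. If the ratios run the other way, every higher below would read lower. Nothing says whether a line's hybridisations used RNA of different cultures, so p-values measure the spread between hybridisations, which may be technical. A line's value is its log2 difference from the other 4 lines on average, which here equals the mean of its 4 arrays, with the standard error (SE) of the linear model. Adjusted p-values come from the moderated tests of limma, with the Benjamini-Hochberg method over the 5415 genes, and a gene passed at 0.05.

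Yeast cells take up ammonium and fix it by joining it to 2-oxoglutarate, a step that makes glutamate and consumes NADPH. GDH1 and its paralog GDH3 encode NADP-dependent glutamate dehydrogenases that carry out this step. GLN1 encodes glutamine synthetase, which adds a further ammonium to glutamate, and GLT1 encodes glutamate synthase, which turns glutamine and 2-oxoglutarate back into glutamate with NADH. GDH2 encodes the NAD-dependent glutamate dehydrogenase, which works in the other direction and releases ammonium from glutamate. Glutamate and glutamine give the nitrogen for most other nitrogen compounds of the cell. In yeast these genes are known to answer to the nitrogen source through GATA factors such as Gln3, to amino acid starvation through Gcn4, and, for GDH1, to Leu3 and the Hap complex.

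Differences among the 5 lines passed the F test for GDH1 and GLN1, and not for GDH3, GLT1 and GDH2. That is 2 of 5 genes, against 18.7% of all genes tested. Chromosome XIII, which carries none of the 5, held 326 of the 1014 genes that passed. These were 76.3% of its 427 tested genes, whose median in MA-A3 was 0.56. On the chromosomes of the 5 enzyme genes, 9.89% to 13.2% of the tested genes passed. GDH1 spanned 1.02 ± 0.11 (SE) between MA-A8, the highest line, and MA-A3, the lowest (adjusted p = 0.000158), a 2.03-fold difference if the base is 2. GLN1 spanned 0.65 ± 0.15 between MA-A4 and MA-A0 (adjusted p = 0.0211), a 1.57-fold difference. GDH3 spanned 0.47 ± 0.14 (adjusted p = 0.0889), GLT1 0.31 ± 0.13 (adjusted p = 0.32) and GDH2 0.27 ± 0.13 (adjusted p = 0.484). The median range of all genes tested was 0.348, so GLT1 and GDH2 lay below it. GDH1 had the 31st smallest p of the F test among the 5415 genes, whereas its range was the 178th widest. Its residual standard deviation was 0.08, against a median of 0.21 for all genes, and 1.81% of genes had a smaller one. The count of 2 was 1 without the MA-A0 over MA-A4 array and 1 without MA-A1 over MA-A4, where GLN1 was lost. It was 1 with an unmoderated test, and 0 with the values as deposited, not centred, where GDH1 spanned 0.98 (adjusted p = 0.105).

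**Figure D1:**
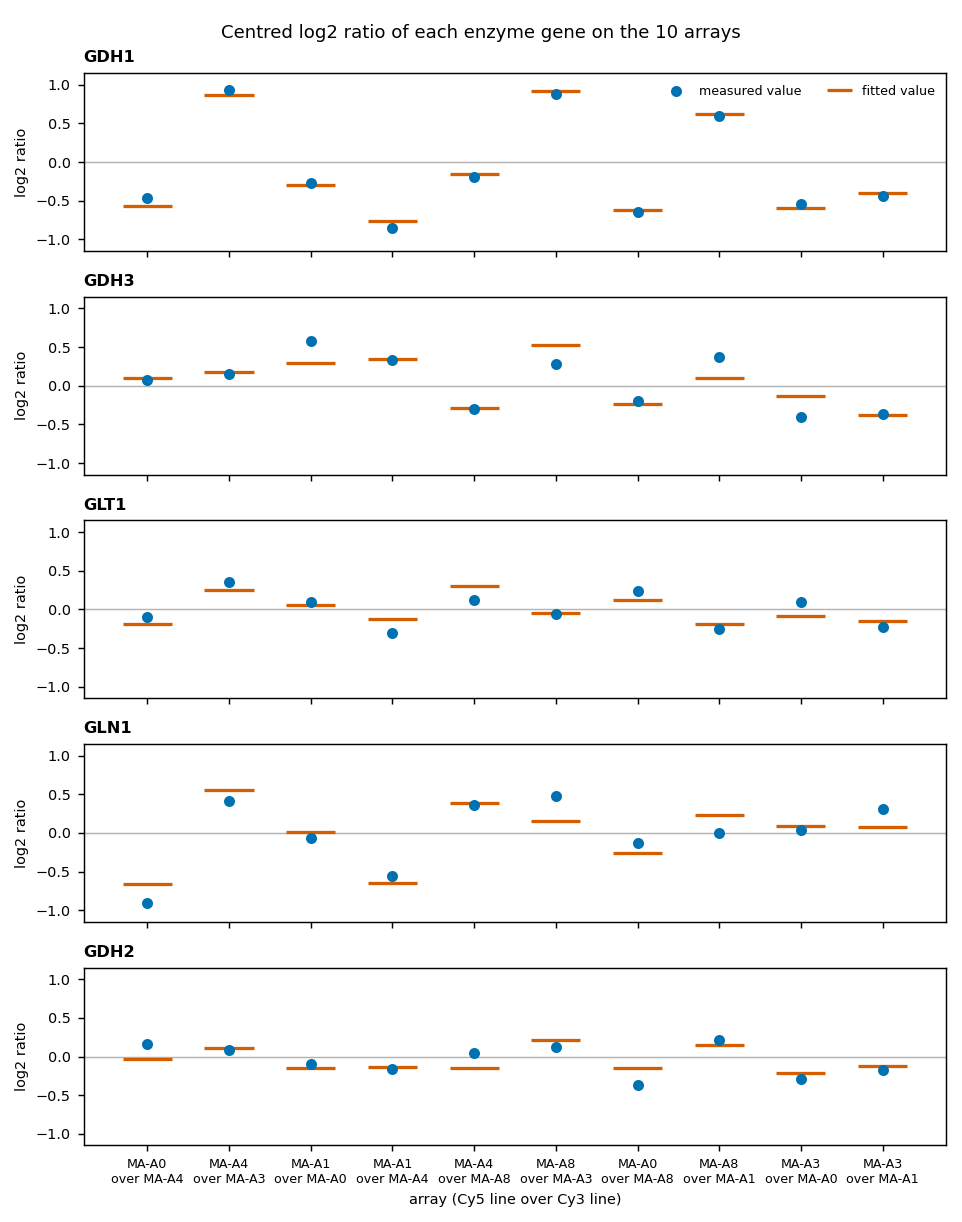
Centred log2 ratio (vertical axis) of the 5 enzyme genes on each of the 10 arrays (horizontal axis, Cy5 line over Cy3 line), with the measured value as a point and the value fitted from all arrays as a bar. GDH1 lies near its fitted values, from -0.85 on MA-A1 over MA-A4 to 0.93 on MA-A4 over MA-A3, whereas GDH3, GLT1 and GDH2 stay between -0.41 and 0.58.

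GDH1, the main enzyme of ammonium fixation in cells growing on glucose and ammonium, was lower in MA-A3 and higher in MA-A4 and MA-A8. In MA-A3 it was at -0.93 against MA-A4, -0.88 against MA-A8, -0.54 against MA-A0 and -0.44 against MA-A1. MA-A3 was thus the lower line on 4 of 4 arrays, in either dye. MA-A8 was at 0.88 against MA-A3, 0.64 against MA-A0, 0.60 against MA-A1 and 0.19 against MA-A4, the higher line on 4 of 4 arrays. MA-A4 was at 0.93 against MA-A3, 0.85 against MA-A1, 0.47 against MA-A0 and -0.19 against MA-A8, and so was the higher line on every array it lay on except the one with MA-A8. The remaining array set MA-A1 at -0.27 against MA-A0. Of the 5411 genes with a value on MA-A1 over MA-A4, 0.148% had a lower one than GDH1.

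Averaged over its arrays, GDH1 in MA-A3 was at -0.70 ± 0.09 (95% confidence interval -0.89 to -0.51, adjusted p = 9.63e-05), in MA-A4 at 0.52 ± 0.09 (0.32 to 0.71, adjusted p = 0.00816) and in MA-A8 at 0.58 ± 0.09 (0.39 to 0.77, adjusted p = 0.00345). In MA-A1 it was at -0.32 ± 0.09 and missed the threshold (adjusted p = 0.0606). This value passed with arrays scaled to one spread (-0.38, adjusted p = 0.0356), without MA-A0 over MA-A4 (-0.32, adjusted p = 0.0413) and without MA-A0 over MA-A8 (-0.32, adjusted p = 0.0269). In MA-A0 it was at -0.08 ± 0.09 (adjusted p = 0.704). Among all genes tested, 17.0% passed in MA-A3, 3.58% in MA-A4, 3.32% in MA-A8, 3.80% in MA-A1 and 0.332% in MA-A0. The MA-A4 call ended without MA-A4 over MA-A3 (adjusted p = 0.0673) and without MA-A1 over MA-A4 (adjusted p = 0.0837), while its size moved only to 0.49 and 0.47.

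From low to high, the order of the lines for GDH1 was MA-A3, MA-A1, MA-A0, MA-A4 and MA-A8. No neighbours in this order passed the test: MA-A3 minus MA-A1 was -0.30 ± 0.11 (adjusted p = 0.0928, where 15.1% of all genes passed) and MA-A1 minus MA-A0 was -0.20 ± 0.11 (adjusted p = 0.335, background 1.83%). MA-A4 minus MA-A0 was 0.47 ± 0.11 (adjusted p = 0.0504, background 1.75%) and MA-A8 minus MA-A4 was 0.05 ± 0.11 (95% confidence interval -0.19 to 0.29, adjusted p = 0.883, background 2.18%). MA-A8 minus MA-A0, further apart, was 0.52 ± 0.11 and did not pass either (adjusted p = 0.0697, background 0.425%). The other 5 of the 10 pairs passed. MA-A8 minus MA-A3 was 1.02 ± 0.11 (adjusted p = 4.22e-05) and MA-A4 minus MA-A3 was 0.97 ± 0.11 (adjusted p = 0.000116), in comparisons where 18.2% and 11.6% of all genes passed. MA-A3 minus MA-A0 was -0.50 ± 0.11 (adjusted p = 0.0102, background 11.6%). MA-A1 stood below both high lines as well, with MA-A4 minus MA-A1 at 0.67 ± 0.11 (adjusted p = 0.0115, background 2.31%) and MA-A8 minus MA-A1 at 0.72 ± 0.11 (adjusted p = 0.0183, background 0.222%). The last of these 5 calls ended without any one of MA-A1 over MA-A0, MA-A1 over MA-A4, MA-A4 over MA-A8, MA-A8 over MA-A1 or MA-A3 over MA-A1. MA-A8 minus MA-A1 then lay between 0.68 and 0.73. It also ended without the dye term (0.72, adjusted p = 0.088). The call for MA-A3 minus MA-A0 ended without the array of that pair (-0.54, adjusted p = 0.0946). That for MA-A4 minus MA-A1 ended without its own array (0.60, adjusted p = 0.196) and without MA-A8 over MA-A1 (0.68, adjusted p = 0.0524). With the values as deposited, not centred, none of the 5 pair calls held, with adjusted p-values from 0.0642 to 0.999. Of 9 other settings of the processing, 4 ended the call for MA-A4 minus MA-A1 and 5 that for MA-A8 minus MA-A1.

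**Figure D2:**
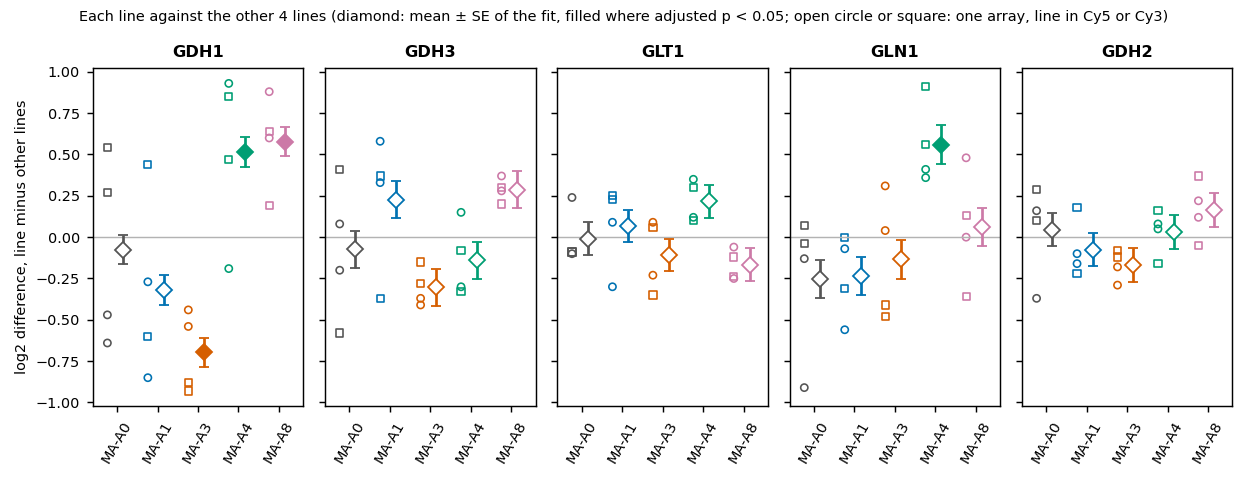
Log2 difference of each line from the other lines (vertical axis) for the 5 enzyme genes. Open circles and squares are single arrays with the line in Cy5 and in Cy3, and diamonds are the mean over the other 4 lines ± SE of the fit, filled where the adjusted p was under 0.05. Filled diamonds stand at -0.70, 0.52 and 0.58 for GDH1 in MA-A3, MA-A4 and MA-A8 and at 0.56 for GLN1 in MA-A4.

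Since the remaining arrays also connect any 2 lines, the value on the shared array can be set against the value estimated from the other 9. For GDH1 the 2 values had the same sign in 10 of 10 pairs and differed by at most 0.25, in MA-A4 minus MA-A1, where the shared array gave 0.85 and the others 0.60. For MA-A8 minus MA-A3 the shared array gave 0.88 and the other 9 gave 1.05 ± 0.16 (adjusted p = 0.00113). The sign was the same in 8 pairs for GDH3, 8 for GLT1, 7 for GDH2 and 6 for GLN1, and the largest gaps were 0.57, 0.33, 0.46 and 0.59. For GLN1 in MA-A8 minus MA-A1 the shared array gave 0, which has no sign and was not counted as the same. The MA-A0 over MA-A8 array is the one whose lines may be exchanged, because over all genes the other arrays fitted it better that way in 1 of the 2 ways of turning it that were tried. GDH1 gave 0.64 for MA-A8 minus MA-A0 on that array and 0.51 ± 0.14 through the other 9. GDH3 gave 0.20 and 0.32, GLN1 0.13 and 0.36, GLT1 -0.24 and -0.03, and GDH2 0.37 and -0.09. With the lines of that array exchanged and the dye effect kept, GDH1 in MA-A8 would be at 0.32 (adjusted p = 0.293) and in MA-A4 at 0.52 (adjusted p = 0.0628), while the call in MA-A3 held.

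**Figure D3:**
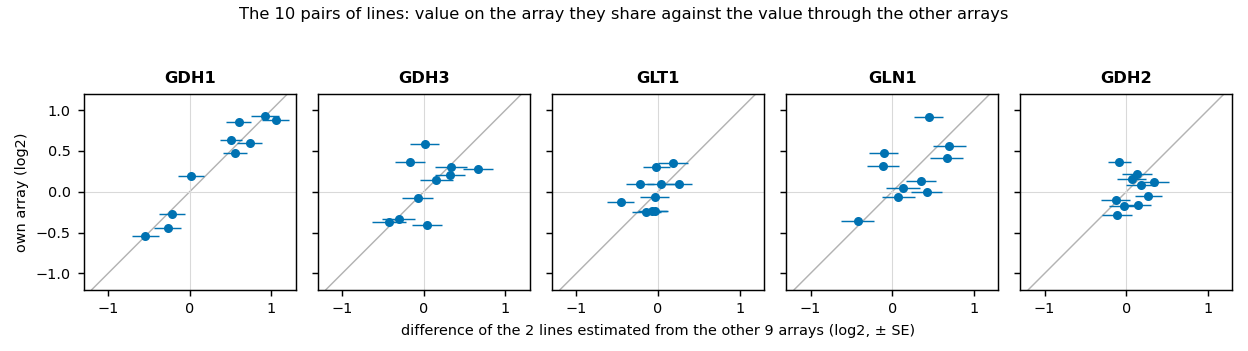
Difference between the lines of each of the 10 pairs on the array they share (vertical axis, log2) against the difference estimated from the other 9 arrays ± SE (horizontal axis, log2), for each enzyme gene, with the line of equal values. The points of GDH1 lie along the line, whereas those of GLN1 and GDH3 include values of opposite sign, such as 0.48 against -0.11 for GLN1 in MA-A8 minus MA-A3.

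GDH3, the paralog of GDH1 that is known for its use on non-fermentable carbon, leaned the same way as GDH1 in MA-A3 and MA-A8 with smaller values. In MA-A3 it was at -0.41 against MA-A0, -0.37 against MA-A1, -0.28 against MA-A8 and -0.15 against MA-A4, below its partner on 4 of 4 arrays. In MA-A8 it was at 0.37 against MA-A1, 0.30 against MA-A4, 0.28 against MA-A3 and 0.20 against MA-A0, above its partner on 4 of 4 arrays. The means, -0.30 ± 0.11 in MA-A3 (adjusted p = 0.0851) and 0.29 ± 0.11 in MA-A8 (adjusted p = 0.18), did not pass. Of the 10 pairs, MA-A8 minus MA-A3 passed, at 0.47 ± 0.14 (adjusted p = 0.0325, a 1.39-fold difference, background 18.2%). This call ended without any one of 5 arrays, with adjusted p-values up to 0.151, and without the dye term (adjusted p = 0.0544). In the other high line of GDH1 it was lower than its partner on 3 of 4 arrays, with a mean of -0.14 ± 0.11 in MA-A4 (adjusted p = 0.631), and in MA-A1 it was at 0.23 ± 0.11 (adjusted p = 0.261). Whether GDH3 differed from GDH1 in these lines was not tested. Across the 10 arrays the values of the paralogs correlated at r = 0.37 and had the same sign on 7 arrays. Their coding sequences are alike, and how far either probe also reads the other transcript cannot be told from the table.

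GLN1, the only glutamine synthetase gene of yeast, was higher in MA-A4. There it was at 0.91 against MA-A0, 0.56 against MA-A1, 0.41 against MA-A3 and 0.36 against MA-A8. MA-A4 was the higher line on 4 of 4 arrays, with a mean of 0.56 ± 0.12 (95% confidence interval 0.31 to 0.81, adjusted p = 0.0169), a 1.47-fold difference. The other 6 arrays held values from -0.13 to 0.48 for GLN1. No pair of the remaining lines passed, with adjusted p-values from 0.432 to 0.97. Against the other 4 lines, MA-A4 included, GLN1 was at -0.25 ± 0.12 in MA-A0 and -0.24 ± 0.12 in MA-A1. It was at -0.14 ± 0.12 in MA-A3 and 0.06 ± 0.12 in MA-A8. The adjusted p-values of these 4 values ran from 0.257 to 0.813. MA-A4 minus MA-A0 was 0.65 ± 0.15 (adjusted p = 0.0385, background 1.75%) and MA-A4 minus MA-A1 was 0.64 ± 0.15 (adjusted p = 0.037, background 2.31%). MA-A4 minus MA-A3 was 0.56 ± 0.15 (adjusted p = 0.022, background 11.6%). MA-A8 minus MA-A4 was -0.40 ± 0.15 and did not pass (adjusted p = 0.191, background 2.18%). GLN1 was the noisier of the 2 genes that passed, with a residual standard deviation of 0.26. Its MA-A4 call ended without MA-A0 over MA-A4 (0.43, adjusted p = 0.111), without MA-A1 over MA-A4 (0.60, adjusted p = 0.0962) and without MA-A4 over MA-A8 (0.58, adjusted p = 0.0606). Each of the 3 pair calls ended without some arrays, 7 of the 10 for MA-A4 minus MA-A0, 7 for MA-A4 minus MA-A1 and 5 for MA-A4 minus MA-A3. The first of them was 0.45 without its own array. Without the dye term MA-A4 minus MA-A0 (adjusted p = 0.0845) and MA-A4 minus MA-A1 (adjusted p = 0.104) did not pass.

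GLT1, glutamate synthase, passed in no line and in none of the 10 pairs. It was higher in MA-A4 than its partner on 4 of 4 arrays, from 0.10 to 0.35, with a mean of 0.22 ± 0.10 (95% confidence interval 0.00 to 0.43, adjusted p = 0.327). In MA-A8 it was below its partner on 4 of 4 arrays, from -0.25 to -0.06, with a mean of -0.17 ± 0.10 (adjusted p = 0.394). In MA-A3 it was at -0.11 ± 0.10, in MA-A1 at 0.07 ± 0.10 and in MA-A0 at -0.01 ± 0.10. MA-A8 minus MA-A4, the high lines of GDH1, was the widest pair of GLT1 at -0.31 ± 0.13 (adjusted p = 0.237).

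GDH2, the glutamate-degrading dehydrogenase, had the narrowest range of the 5 genes. Its means ran from -0.17 ± 0.10 in MA-A3 (95% confidence interval -0.38 to 0.05, adjusted p = 0.312) to 0.17 ± 0.10 in MA-A8 (-0.05 to 0.38, adjusted p = 0.417). MA-A3 was the lower line on 4 of 4 arrays, by values from -0.29 to -0.08. MA-A8 minus MA-A3 was 0.27 ± 0.13 (adjusted p = 0.182), the widest of its 10 pairs, of which none passed. The confidence intervals of GDH2 and GLT1 leave room for differences of up to 0.43 from the other lines. Among the 5 genes, the values of GDH1 over the 10 arrays were closest to those of GDH2 (r = 0.69) and GLN1 (r = 0.60). The lowest r was -0.22, between GDH3 and GLN1. The arrays share lines and are not independent, so these are descriptions.

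The genes lie on 4 chromosomes: GDH1 on XV, GLN1 on XVI, GDH3 on I, and GLT1 and GDH2 on IV, by the gene order of the R64 assembly of S288C. The medians of all tested genes on these chromosomes stayed between -0.07 and 0.05 in every line. Next to GDH1, ALD4, a mitochondrial aldehyde dehydrogenase, was at 0.25 in MA-A3, 0.48 in MA-A4 and -0.57 in MA-A8. It did not pass the F test (adjusted p = 0.0538). ATF1, an alcohol acetyltransferase on the other side, was at -0.40 in MA-A3, 0.17 in MA-A4 and 0.24 in MA-A8 (F test, adjusted p = 0.0405). Beside GLN1, VMA13, a subunit of the vacuolar proton pump, passed with values of 0.11 in MA-A4 and -0.47 in MA-A3 (adjusted p = 0.0255), and ARP7, a chromatin remodelling subunit, did not (adjusted p = 0.315). Beside GDH3, BDH2, which resembles the butanediol dehydrogenase gene BDH1, was at 0.89 in MA-A3 (F test, adjusted p = 0.000496), where GDH3 itself was at -0.30.

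Lists of related genes were set beside the enzymes. They were chosen with earlier results of these data known, and their counts are descriptions. Of the 3 ammonium permease genes 2 were tested. MEP3 was high in MA-A4, as GLN1 was, at 0.61 ± 0.10 in MA-A4 (adjusted p = 0.00769) and -0.42 ± 0.10 in MA-A3 (adjusted p = 0.0118). MEP1 did not pass the F test (range 0.39, adjusted p = 0.155). Of 26 listed targets of the GATA factors 16 were tested and 5 passed the F test, 31.2% against 18.7% of all genes. They went different ways, as AGP1, an amino acid permease gene, was at 0.48 ± 0.09 in MA-A4, 0.39 ± 0.09 in MA-A3 and -0.57 ± 0.09 in MA-A1, and the proline oxidase gene PUT1 was at 0.61 ± 0.11 in MA-A1 (adjusted p = 0.0135). The medians of the list were 0.04 in MA-A4 and -0.06 in MA-A3. PUT2, which follows PUT1 in proline breakdown to glutamate, was at -0.42 ± 0.10 in MA-A1 (adjusted p = 0.0385), opposite to PUT1. PUT1 lies on chromosome XII, whose tested genes had a median of 0.26 in MA-A1.

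Of 19 regulators of nitrogen genes 2 passed the F test, 10.5% against 18.7%. HAP4, the regulatory subunit of the Hap complex and known for its induction in respiring cells, was at 0.92 ± 0.15 in MA-A3 (adjusted p = 0.000618) and -0.69 ± 0.15 in MA-A8 (adjusted p = 0.0256), opposite to GDH1 in these lines. LEU3, an activator of GDH1, was at 0.42 ± 0.09 in MA-A1 (adjusted p = 0.0314) and lies on chromosome XII. GLN3, the GATA activator, spanned 0.42 (adjusted p = 0.14), and DAL81 spanned 0.39 (adjusted p = 0.16).

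In the list of 2-oxoglutarate supply and retrograde targets 3 of 21 passed the F test, a share near the background (14.3% against 18.7%). DLD3 and CIT2 are known targets of the retrograde pathway, which answers to a shortage of glutamate. DLD3, which makes 2-oxoglutarate from 2-hydroxyglutarate, was at 0.82 ± 0.11 in MA-A4 (adjusted p = 0.00271), 0.58 ± 0.11 in MA-A8 (adjusted p = 0.0155) and -0.89 ± 0.11 in MA-A3 (adjusted p = 0.000102), with the signs that GDH1 had in these lines. CIT2, the peroxisomal citrate synthase, was at 0.87 ± 0.11 in MA-A4 (adjusted p = 0.00116), with values from -0.44 to -0.10 in the other lines. CIT1, the mitochondrial citrate synthase, passed the F test (range 0.55, adjusted p = 0.0473) and in no single line. IDH2, a subunit of isocitrate dehydrogenase, was at -0.39 ± 0.10 in MA-A1 (adjusted p = 0.0485) and did not pass the F test (adjusted p = 0.0746).

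Glutamine amidotransferases move the amide of glutamine onto other compounds. Of 14 tested genes listed under this name 7 fell below the other lines in MA-A3, 2 were above them and 5 did not pass. Their median in MA-A3 was -0.28. Of all genes 6.19% were lower and 10.8% higher there. Among the 7 was TRP2 (-0.45, adjusted p = 0.00892), named here after its values were seen. It encodes a partner subunit of the amidotransferase Trp3 and no amidotransferase itself. Across the 5 lines 6 of the 14, TRP2 included, passed the F test, against 18.7% of all genes. URA2, the first enzyme of pyrimidine synthesis, was at -1.19 ± 0.13 in MA-A3 (adjusted p = 3.78e-05) and 0.73 ± 0.13 in MA-A8 (adjusted p = 0.00975). The asparagine synthetase genes ASN1 and ASN2 were at -0.58 ± 0.10 (adjusted p = 0.000743) and -0.38 ± 0.09 (adjusted p = 0.0109) in MA-A3. ADE4, of purine synthesis, was 1 of the 2 higher genes, at 0.59 ± 0.11 (adjusted p = 0.00192), in a fit without MA-A0 over MA-A4, where it had no value. It lies on chromosome XIII, whose 427 tested genes had a median of 0.56 in MA-A3, and so does the other, GUA1, of GMP synthesis, which is named here after its values were seen.

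Of 12 glutamate-linked transaminases 7 passed the F test, and in MA-A3 4 were lower and 1 higher, with a median of -0.12, against 18.7% of all genes in the F test and 6.19% lower and 10.8% higher in MA-A3. The alanine transaminase genes ALT1 and ALT2 went opposite ways, at -0.67 ± 0.09 (adjusted p = 0.000132) and 0.72 ± 0.14 (adjusted p = 0.00148) in MA-A3. ALT1, which lies on chromosome XII, was also at 0.45 ± 0.09 in MA-A1 (adjusted p = 0.0202). ARO9, an aromatic transaminase, was at -0.68 ± 0.12 (adjusted p = 0.0012). SER1, of serine synthesis, passed in MA-A1, at -0.52 ± 0.11 (adjusted p = 0.0303). Another list held genes between glutamate and proline, arginine, glutathione and GABA, in either direction. Of these, 3 of 10 passed the F test, against 18.7% of all genes. They were GAD1 and the proline breakdown genes PUT1 and PUT2, which were also counted among the GATA-factor targets. GAD1, glutamate decarboxylase, was at 1.60 ± 0.17 in MA-A3 (adjusted p = 2.36e-05) and -0.94 ± 0.17 in MA-A8 (adjusted p = 0.00898), opposite to GDH1, and at -0.69 ± 0.17 in MA-A1 (adjusted p = 0.0397). It lies on chromosome XIII. PRO3, the last enzyme of proline synthesis, was at -0.40 ± 0.11 in MA-A3 (adjusted p = 0.0267) and did not pass the F test (adjusted p = 0.0572).

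NADPH is the cofactor of GDH1 and GDH3. A list of 9 genes held the pentose phosphate pathway and other cytosolic sources of NADPH. Its SOL3, SOL4, TAL1 and TKL1 encode enzymes that make no NADPH themselves. Of the 9 genes 3 were lower and 1 higher in MA-A3. Of all genes 6.19% were lower and 10.8% higher there. The other 5 of the list did not pass in MA-A3, and the list's median was -0.02. GND1, 6-phosphogluconate dehydrogenase, was at -0.78 ± 0.11 (adjusted p = 0.00024), the transketolase gene TKL1 at -0.62 ± 0.10 (adjusted p = 0.000449) and the transaldolase gene TAL1 at -0.55 ± 0.11 (adjusted p = 0.00193). SOL4, a 6-phosphogluconolactonase gene, was at 1.39 ± 0.13 in MA-A3 (adjusted p = 7.6e-06), -0.59 ± 0.13 in MA-A4 (adjusted p = 0.0219) and -0.62 ± 0.13 in MA-A8 (adjusted p = 0.0175), opposite to GDH1 in the 3 lines where GDH1 passed. The 5 genes that did not pass in MA-A3 are named here after their values were seen. There ZWF1 was at -0.02 ± 0.11, GND2 at -0.015 ± 0.11 and SOL3 at -0.23 ± 0.10. ALD6 was at 0.37 ± 0.17 and IDP2 at 0.98 ± 0.46 in MA-A3. In MA-A8 ALD6 was at -0.65 ± 0.17 (adjusted p = 0.0471), opposite to GDH1, and it did not pass the F test (adjusted p = 0.0641).

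**Figure D4:**
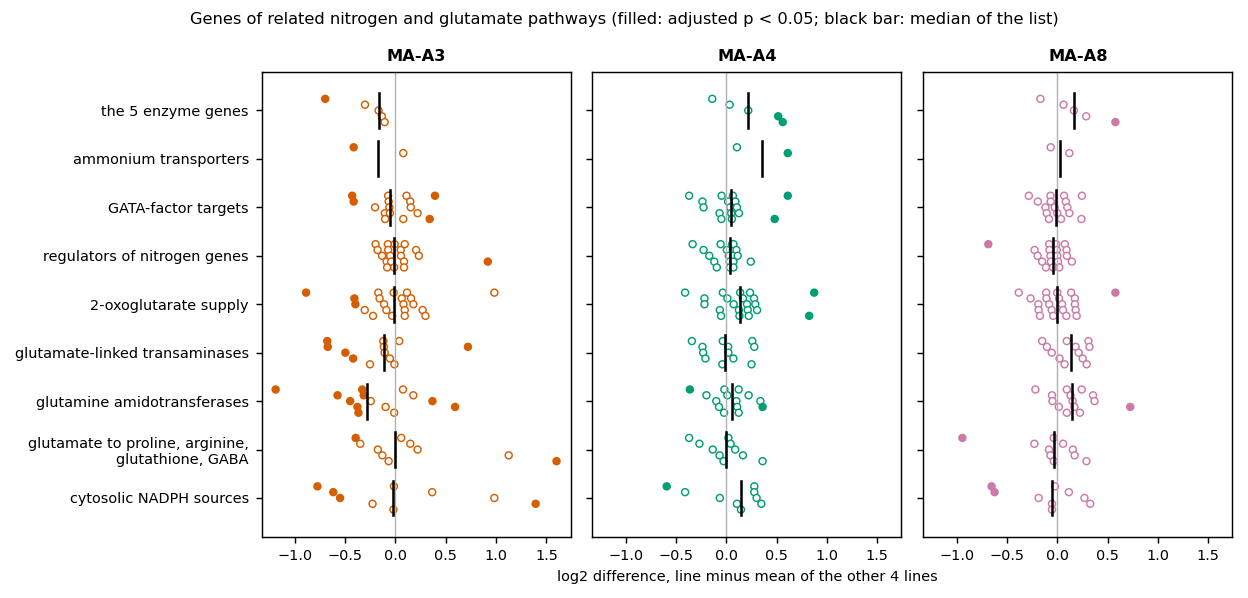
Log2 difference of MA-A3, MA-A4 and MA-A8 from the mean of the other 4 lines (horizontal axis) for the 5 enzyme genes and for 8 lists of related genes (rows). Each point is a gene, filled where the adjusted p was under 0.05, and the black bar is the median of the row. In MA-A3 the filled points of the glutamine amidotransferase list lie mostly to the left (7 lower, 2 higher). The medians of the rows run from -0.28 to -0.005 in MA-A3.

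Other genes followed the pattern of GDH1 closely. Out of 974 genes with complete values that passed the F test, the 5 with the highest Pearson correlation to GDH1 over the 10 arrays had r from 0.95 to 0.96. They were ASN2, ISN1, an IMP nucleotidase, GPX2, a glutathione peroxidase, PFK1, a subunit of phosphofructokinase, and YNL058C. ISN1 was at -0.60 in MA-A3, 0.57 in MA-A4 and 0.34 in MA-A8, and YNL058C at -0.70, 0.46 and 0.48 in the same lines. The 3 most opposite genes were GPX1, another glutathione peroxidase (r = -0.92), RNH1, a ribonuclease H (r = -0.87), and FUS2, which acts in cell fusion during mating (r = -0.87). RNH1 and FUS2 lie on chromosome XIII.

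For GLN1 the closest patterns were those of SPC25, a kinetochore gene (r = 0.85), MEP3 (r = 0.84), YMR046C, a Ty1 retrotransposon Gag gene with near-identical copies (r = 0.80), PPQ1, a protein phosphatase gene (r = 0.80), and ARO1, of aromatic amino acid synthesis (r = 0.79). The most opposite were YGR201C (r = -0.91), GPM2 (r = -0.83) and MOG1 (r = -0.83), of which YGR201C was at -0.62 in MA-A4. The genes closest to GDH3 were GPB1, a regulator of protein kinase A signalling (r = 0.91), IMA3, an isomaltase gene with near-identical copies (r = 0.88), FIT2, a cell wall mannoprotein gene of iron retention (r = 0.88), PRM4 (r = 0.87) and HXT12, a hexose transporter copy (r = 0.86). FIT2 spanned 2.43 among the lines, against 0.47 for GDH3. The most opposite to GDH3 were the mitochondrial ribosomal protein gene SWS2 (r = -0.91), MSB2, a cell surface mucin (r = -0.89), and HTA1, a histone gene with a close copy (r = -0.89). Values of r this high were selected from many genes, and the arrays share lines, so they carry no p.

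**Figure D5:**
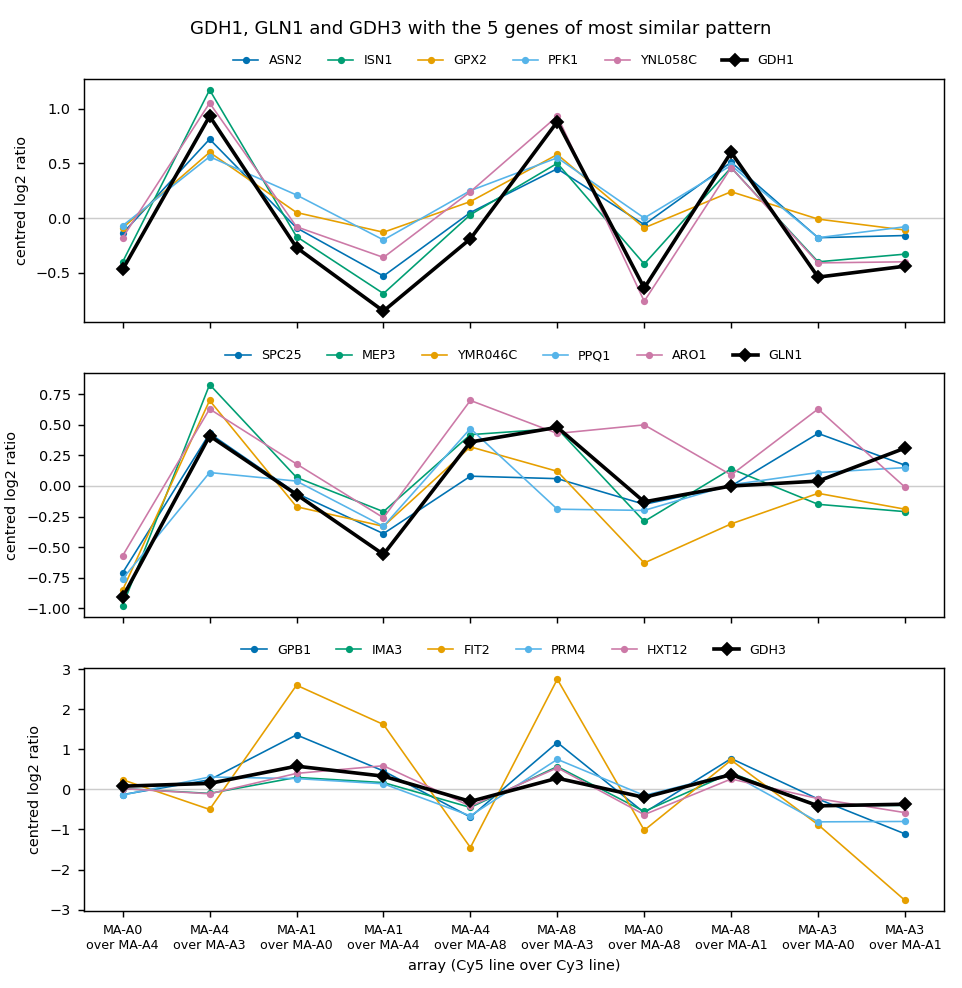
Centred log2 ratio (vertical axis) on the 10 arrays (horizontal axis) of GDH1, GLN1 and GDH3 (black), each with the 5 genes whose values correlated best with it. The genes near GDH1 have r from 0.95 to 0.96 with it, those near GLN1 from 0.79 to 0.85 and those near GDH3 from 0.86 to 0.91.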

How the data were processed

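Per the labels' protocols, total RNA was labelled with Cy5 and Cy3 by a dendrimer kit and hybridised to 2-colour arrays. The authors deposited 1 value per probe row and array, which was read as a log2 ratio. For scanner, background correction, spot filters and normalization, the authors' steps were not given in the sources at hand. Array medians lay between -0.84 and 0.41 in the values as deposited. Of 7744 rows, 6282 to 6824 had a value on an array, and 6116 rows have 1 gene in the annotation, 6111 of them matched by gene ID to R64.

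Each array was centred on its median, and rows of a gene were averaged. Models were fitted to genes measured on 8 or more arrays (limma 3.58.1, R 4.3.3). The model had the difference of the lines (Cy5 minus Cy3) and a dye effect, with 5 residual degrees of freedom for complete genes. Variances were moderated with a prior of 9.19 degrees of freedom. Standard errors use the arrays present for each gene. P-values are Benjamini-Hochberg values over 5415 genes. The fit was also run on simulated arrays with known changes and independent noise drawn from the fitted variances. Such data cannot show noise shared between arrays, an exchanged array or a reversed ratio. The number of arrays limits the precision.

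Named are the 5 genes, the 5 most and 3 least correlated genes for GDH1, GDH3 and each member passing the F test, and the 4 genes of each list with the smallest F test p. Members and lists were chosen with earlier results of these data known. Alternatives were the values as deposited, no dye term, scaled arrays, other filters, a robust or no prior, the MA-A0 over MA-A8 array turned, and each array left out.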

Additional observations from a re-analysis of the deposited data

How the results depend on the processing

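Of the genes tested, 1014 differed among the lines in the fit reported, 145 with values as deposited, 580 without the dye term, 62 with the unmoderated test, 1537 with the lines of MA-A0 over MA-A8 exchanged and the dye effect kept (an alternative chosen after seeing the data), and 605 to 1910 with 1 array left out. Of the enzyme genes 2 passed, 0 with values as deposited, 1 with the unmoderated test, and 1 to 2 with 1 array left out.

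With values as deposited, no enzyme gene passed the F test, and no pair call of GDH1, GDH3 or GLN1 held. GDH1 spanned 0.98 (adjusted p = 0.105) and was at -0.70 in MA-A3 (0.0963), 0.41 in MA-A4 (0.998) and 0.52 in MA-A8 (0.997). GLN1 spanned 0.65 (1) and was at 0.46 in MA-A4 (0.998). With the unmoderated test GDH1 was at 0.52 in MA-A4 (0.0604) and 0.58 in MA-A8 (0.124), and GLN1 spanned 0.65 (0.182) and was at 0.56 in MA-A4 (0.181). Turning the value of MA-A0 over MA-A8 left GDH1 at 0.52 in MA-A4 (0.109) and 0.26 in MA-A8 (0.328), and exchanging its lines left 0.52 (0.0628) and 0.32 (0.293). With arrays scaled to one spread GDH3 passed the F test (range 0.49, 0.0493). The causes were not tested.

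With 1 array left out, GDH1 spanned 0.996 to 1.05 and passed each time, at -0.73 to -0.67 in MA-A3, 0.47 to 0.57 in MA-A4 and 0.56 to 0.60 in MA-A8. GLN1 spanned 0.53 to 0.73 and was at 0.43 to 0.63 in MA-A4. The range was 0.40 to 0.67 for GDH3, 0.26 to 0.45 for GLT1 and 0.24 to 0.35 for GDH2.

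Among the line values of the 5 genes, those that changed sign under these alternatives had not passed in the fit reported. In MA-A0, values as deposited put GDH1 at 0.20, GDH3 at 0.21, GLT1 at 0.27 and GLN1 at 0.025, GLT1 in MA-A1 at -0.0475 and GDH2 in MA-A4 at -0.07. Scaled arrays put GDH1 in MA-A0 at 0.0053. Turning MA-A0 over MA-A8 put GDH1 and GDH3 in MA-A0 at 0.25 and 0.0275, and GLN1 and GDH2 in MA-A8 at -0.0025 and -0.02. Exchanging its lines put GDH1 and GDH3 in MA-A0 at 0.18 and 0.0426 and GDH2 in MA-A8 at -0.0158. With 1 array left out, the ranges that crossed 0 were -0.21 to 0.072 for GDH3, -0.0695 to 0.0765 for GLT1 and -0.0535 to 0.16 for GDH2 in MA-A0, -0.25 to 0.0295 for GLN1 in MA-A3, -0.10 to 0.18 for GLN1 in MA-A8 and -0.069 to 0.13 for GDH2 in MA-A4.

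Each enzyme gene has 1 probe row, so taking rows one by one gave no value. No paired analysis was possible because no pair of lines was hybridised more than once; the fit uses the pairing of lines within an array. Values without intensities leave signal over background unknown.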
